A study of Mus musculus with 22 samples.

Results

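The 8 genes described here encode the core of the PI3K, AKT and mTOR pathway, the pathway that the engineered oncogene of these tumours activates. They were taken as a fixed set of symbols matched to Ensembl gene IDs, 8 of the 56748 gene IDs in the files: the catalytic subunit genes Pik3ca, Pik3cb and Pik3cd, the regulatory subunit gene Pik3r1, the kinase genes Akt1, Akt2 and Mtor, and the translation repressor gene Eif4ebp1. All 8 passed the filter on low counts. RNA was sequenced in bulk from 22 primary squamous carcinomas of the mouse cheek lining. Every mouse had a tamoxifen-inducible Cre under the Krt5 promoter of basal keratinocytes (Krt5CreER-T2/+), floxed Trp53 (Trp53fl/fl) and 2 copies of a Cre-activated PIK3CA transgene with the H1047R change at the Rosa26 locus. Tumours were started by an injection of 4-hydroxytamoxifen into the cheek, so the controls carry the Trp53 deletion and the transgene too. The Keap1-wildtype groups had no further allele, and the Keap1-deleted groups also had Keap1fl/fl. KEAP1 marks the transcription factor NRF2 for degradation. In each genotype, tumours were started either without a further agent, called untreated here, or with BAP, which stands for benzo[a]pyrene, a polycyclic hydrocarbon found in tobacco smoke. The Keap1-wildtype genotype gave 6 untreated and 6 BAP tumours, and the Keap1-deleted genotype gave 5 of each. Ages are not given in the labels.

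Class IA PI3K is a dimer of a catalytic subunit (p110) and a regulatory subunit (p85) that binds activated receptors and adaptors. It makes the lipid PIP3 at the membrane, where PIP3 recruits AKT and PDK1, and lipid phosphatases remove it again. Active AKT releases mTOR complex 1 from the brake of the TSC proteins, and mTOR complex 1 phosphorylates the S6 kinases and 4E-BP1, which then lets the cap-binding protein eIF4E start translation. These steps run through phosphorylation, which RNA levels do not measure. PIK3CA is often mutated in squamous carcinoma of the head and neck, while p110-delta, encoded by Pik3cd, is known chiefly from leukocytes.

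The activated allele of these tumours changes histidine 1047 in the kinase domain, and the matching stretch of the mouse gene is printed to show where the change lies. In mouse Pik3ca this codon is in exon 20 of 20, at chr3:32462763-32462765 on the plus strand of GRCm38. The window covers chr3:32462733-32462795, from the GENCODE M21 transcript that codes for 1068 residues, with the histidine codon in capitals.
Pik3ca codon 1047: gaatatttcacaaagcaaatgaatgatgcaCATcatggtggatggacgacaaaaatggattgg
The files give 1 row for mouse Pik3ca and no separate row for the transgene, and the labels do not state the species of its coding sequence. Whether transgene reads were counted in the Pik3ca row was not tested.

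Totals lay between 29235010 and 39862777 counts per library, with overlapping ranges in the 4 groups. Levels below are CPM, the counts of a gene relative to the total of its library, scaled by TMM, a factor that evens out differences in composition between libraries. Keap1 itself ran from 45.8 to 78.9 CPM in Keap1-wildtype untreated tumours and from 52.3 to 64.6 in Keap1-wildtype BAP tumours, against 22.2 to 36.4 in Keap1-deleted untreated tumours. In the Keap1-deleted BAP group it ran from 9.45 to 65.6 CPM, and the library labelled Keap1-deleted BAP 2 held the highest value, inside the wildtype range. The summed level of 14 basal keratinocyte markers was 36900 to 81300 CPM in Keap1-wildtype BAP and 257 to 2310 CPM in Keap1-deleted BAP tumours, so the markers of the labelled squamous tumour type were low in the latter, with Krt14 at 13.0 to 1160 CPM. The library Keap1-wildtype untreated 6 stood apart from its group, with the lowest keratinocyte and the highest leukocyte marker sum of the 6. Results that rest on either of these libraries are given with and without them.

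Because gene length sets how many reads a transcript yields, levels of different genes were compared only as TPM, computed from the deposited gene lengths. TPM here has no TMM scaling, so differences in composition between libraries remain in it. Over the 22 tumours the median was 161 TPM for Eif4ebp1 and 123 TPM for Akt1. Akt2 followed at 40.6, Pik3ca at 29.1, Pik3r1 at 17.8, Mtor at 10.5, Pik3cb at 7.41 and Pik3cd at 5.66 TPM. Akt1 was above Akt2 in 22 of 22 tumours, and this was the only step in the order where the ranges of neighbours did not overlap. Akt2 was above Pik3ca in 21 tumours, Pik3ca above Pik3r1 in 20 and Mtor above Pik3cb in 18. Eif4ebp1 was above Akt1 in 12 tumours, Pik3r1 above Mtor in 13 and Pik3cb above Pik3cd in 11, so no order held over the pooled tumours. The group medians of each of these pairs were not in the same order in all 4 groups. In Keap1-wildtype BAP tumours the median was 6.49 TPM for Pik3cb and 1.44 TPM for Pik3cd. In Keap1-deleted BAP tumours it was 7.78 TPM for Pik3cb and 25.0 TPM for Pik3cd.

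**Figure D1:**
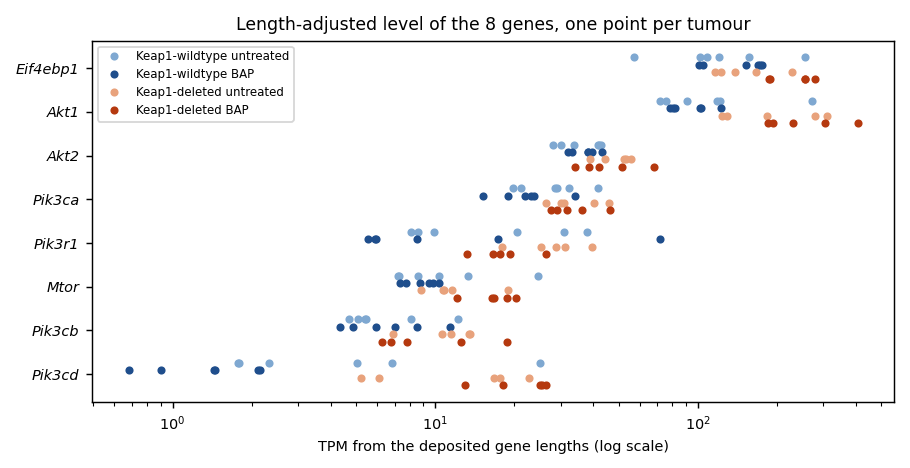
Each point is the TPM of a gene (rows) in a tumour on a log axis, coloured by group, with genes in the order of their median over 22 tumours. Akt1 lies above Akt2 in every tumour, and Pik3cd spans 0.68 to 26.4 TPM.

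Among the catalytic subunits, Pik3ca gave the largest share of class IA TPM in each group, with a mean of 69.9% ± 13.3 (SD, n = 6) in Keap1-wildtype untreated, 72.8% ± 8.15 (n = 6) in Keap1-wildtype BAP, 58.7% ± 5.66 (n = 5) in Keap1-deleted tumours without BAP and 52.0% ± 6.95 (n = 5) with it. The share of Pik3cd was 13.8% ± 12.5, 4.53% ± 1.30, 21.6% ± 8.56 and 32.9% ± 7.56 in the same order. In Keap1-wildtype untreated tumours its median was 8.98%, and the highest share, 38.1%, was in library 6. In Keap1-wildtype BAP tumours the highest Pik3cd share was 6.59%, and in Keap1-deleted BAP tumours the lowest was 23.7%. Pik3cb, whose product p110-beta also answers to G protein-coupled receptors, had mean shares between 15.2% and 22.6%.

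Deletion of Keap1 was compared first in untreated tumours. None of the 8 genes passed the edgeR test there at an adjusted p under 0.05, and none had an unadjusted p under 0.05, where 0.292% of the 19202 genes tested were called. The fold changes of the 8 genes ran from -0.27 for Mtor to 0.75 for Pik3cd on the log2 scale, with a median of 0.21 beside -0.05 for all genes tested. DESeq2 called 0 of the 8 (4.92% of all genes) and limma-voom with sample weights called Pik3cd (9.83% of all genes). Without the library Keap1-wildtype untreated 6, Pik3cd was 1.55 higher in Keap1-deleted tumours on the log2 scale (edgeR adjusted p = 0.0104), and without both doubted libraries it was 1.56 higher (edgeR adjusted p = 0.0127).

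In BAP tumours the same comparison called 3 of the 8: Pik3cd and Akt1 were higher and Akt2 was lower in the Keap1-deleted group. Over all genes tested 40.3% were called in this comparison, 20.3% higher and 20.0% lower, so the count of 3 is near the background. Without both doubted libraries 2 of the 8 were called, Pik3cd and Akt1, beside 39.2% of all genes. The median fold change of the 8 genes was -0.11 on the log2 scale beside 0.00 for all genes.

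Pik3cd encodes p110-delta, the catalytic subunit that acts below antigen and cytokine receptors. Its level was 27.4, 30.4, 42.4, 40.4 and 53.7 CPM in the 5 Keap1-deleted BAP tumours, while the 6 Keap1-wildtype BAP tumours had a lowest level of 2.43, a median of 4.42 and a highest of 5.96 CPM. The groups did not overlap. The difference was 3.18 on the log2 scale (SE 0.51, 95% interval 2.12 to 4.24, edgeR adjusted p = 0.000332), and all 5 deleted tumours lay above all 6 wildtype tumours. In Keap1-deleted untreated tumours Pik3cd was at 15.0, 36.1, 36.6, 31.7 and 12.8 CPM. The Keap1-wildtype untreated tumours ran from 5.37 over a median of 9.02 to 49.3 CPM, with the highest value in library 6, so the untreated groups overlapped. The interaction, which is the Keap1 difference in BAP minus that in untreated tumours, was 2.43 for Pik3cd (SE 0.69, 95% interval 0.99 to 3.86, edgeR adjusted p = 0.0411). Of all genes tested 6.94% were called for this interaction and 2.47% were called higher, and Pik3cd was the only one of the 8 that passed. This Pik3cd call was lost without both doubted libraries (1.70, edgeR adjusted p = 0.0536), and it held in 8 of 22 fits that each left out 1 library.

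Leukocyte genes moved with Pik3cd. The summed level of 12 leukocyte markers was 68.0 to 147 CPM in Keap1-wildtype BAP tumours and 683 to 1820 CPM in Keap1-deleted BAP tumours. In untreated tumours it was 107 to 1870 CPM in the wildtype and 480 to 1340 CPM in the deleted group. All 12 leukocyte markers and all 8 macrophage markers were called higher in Keap1-deleted BAP tumours, and no leukocyte marker was at 0 in any library. The 8 fibroblast markers and 9 of 10 skeletal muscle markers were also called higher, 1 of 8 endothelial markers was, and 14 of 14 basal keratinocyte markers were called lower. In bulk RNA, fewer cells of a type and less RNA per cell cannot be told apart. The log2 ratio of Pik3cd to Ptprc, the CD45 gene of all leukocytes, was -0.88 ± 0.40 (SD, n = 6) in Keap1-wildtype BAP and -0.99 ± 0.57 (n = 5) in Keap1-deleted BAP tumours, and these ranges overlapped. That ratio was -0.98 ± 0.45 (n = 6) in Keap1-wildtype untreated and -1.32 ± 0.17 (n = 5) in Keap1-deleted untreated tumours. The log2 ratio of Pik3cd to Pik3ca, by contrast, ran from -5.23 to -3.68 in Keap1-wildtype BAP and from -1.88 to -0.76 in Keap1-deleted BAP tumours. With the mean leukocyte marker level of each tumour as a covariate, the Pik3cd difference in BAP tumours was 0.92 (edgeR adjusted p = 0.485), and with the basal keratinocyte level it was 1.22 (edgeR adjusted p = 0.821). Those fits called 2 and 0 of all genes, and the marker levels separate the BAP groups, so they cannot be told apart from the Keap1 genotype there.

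**Figure D2:**
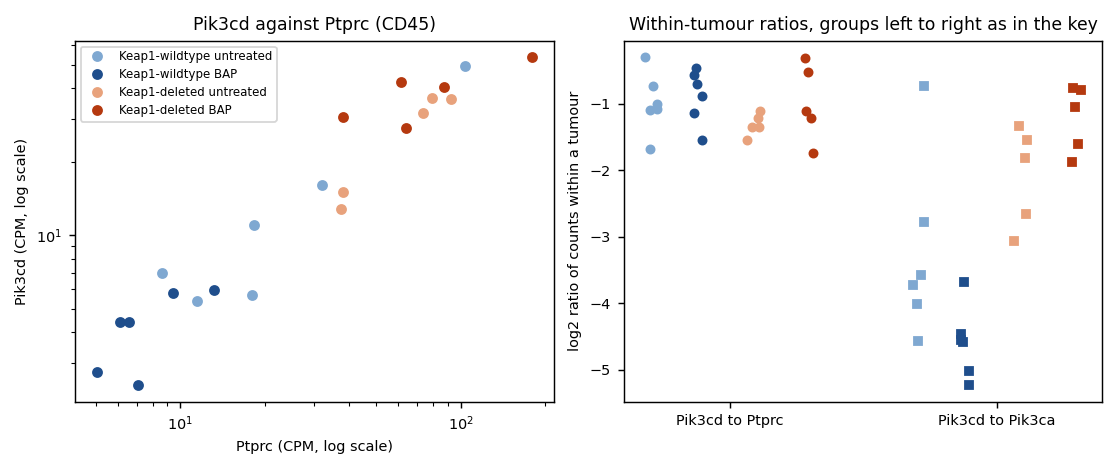
Left, Pik3cd against Ptprc in CPM on log axes, 1 point per tumour, coloured by group. Right, the log2 ratios of Pik3cd to Ptprc and to Pik3ca within each tumour: the first overlaps between the BAP groups, and the second does not.

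Akt1 and Akt2 encode closely related kinases that PIP3 recruits to the membrane. Akt2 is the form best known for insulin-stimulated glucose uptake. Akt1 was at 255, 444, 252, 324 and 256 CPM in Keap1-deleted BAP tumours, and the Keap1-wildtype BAP tumours ran from 157 over a median of 189 to 216 CPM. All 5 deleted tumours lay above all 6 wildtype tumours, with the highest value in the library labelled Keap1-deleted BAP 2. The difference was 0.72 on the log2 scale (SE 0.25, 95% interval 0.20 to 1.23, edgeR adjusted p = 0.0261). It was lost when Keap1-wildtype BAP 5 or the library labelled Keap1-deleted BAP 2 was left out (adjusted p up to 0.0971), and it was 0.55 (edgeR adjusted p = 0.0443) without both doubted libraries. With the leukocyte level as a covariate the Akt1 difference was 0.01, and with the keratinocyte level it was -0.05. Those fits called 2 and 0 of all genes, and the marker levels separate the BAP groups, so they cannot be told apart from the Keap1 genotype. The part of these cell type markers in the Akt1 result was not tested. In untreated tumours Akt1 was at 207, 244, 327, 347 and 199 CPM in the deleted group and at 102 to 350 CPM in the wildtype group, and the groups overlapped.

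Akt2 moved the other way in BAP tumours. It was at 81.7, 97.7, 129, 70.8 and 97.8 CPM in Keap1-deleted BAP tumours and ran from 116 over a median of 132 to 138 CPM in Keap1-wildtype BAP tumours. Of the 5 deleted tumours 4 lay below all 6 wildtype tumours, and the remaining one, at 129 CPM, lay within their range. The difference was -0.43 on the log2 scale (SE 0.17, 95% interval -0.78 to -0.09, edgeR adjusted p = 0.0425). This call held in 2 of 11 fits that each left out 1 library of these groups. With library totals as the only scaling the median of all genes shifted from 0.00 to 0.44 and Akt2 to 0.01 (edgeR adjusted p = 0.958), so that Akt2 lay about as far below that median as before. With the keratinocyte marker level as a covariate Akt2 was at 0.01 (edgeR adjusted p = 1.0), and with the leukocyte marker level at -0.38 (edgeR adjusted p = 0.674). Those 2 fits called 0 and 2 of all 19202 genes. In TPM, which has no TMM scaling, the Akt2 median was 42.2 in Keap1-deleted BAP and 38.2 in Keap1-wildtype BAP tumours, with overlapping ranges. The log2 ratio of Akt1 to Akt2 within a tumour does not depend on the scaling. It was 0.53 ± 0.14 (SD, n = 6, 0.30 to 0.70) in Keap1-wildtype BAP and 1.68 ± 0.53 (n = 5, 0.97 to 2.19) in Keap1-deleted BAP tumours, with no overlap. A higher Akt1 alone would also raise this ratio, so it does not show that Akt2 was lower. In untreated tumours that ratio was 0.54 to 1.88 in the wildtype and 0.68 to 1.74 in the deleted group, which overlapped. The value of 1.88 was in Keap1-wildtype untreated 6. Without that library the wildtype range was 0.54 to 0.72, and the groups still overlapped. The interaction for Akt2 was -0.53 (edgeR adjusted p = 0.154).

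**Figure D3:**
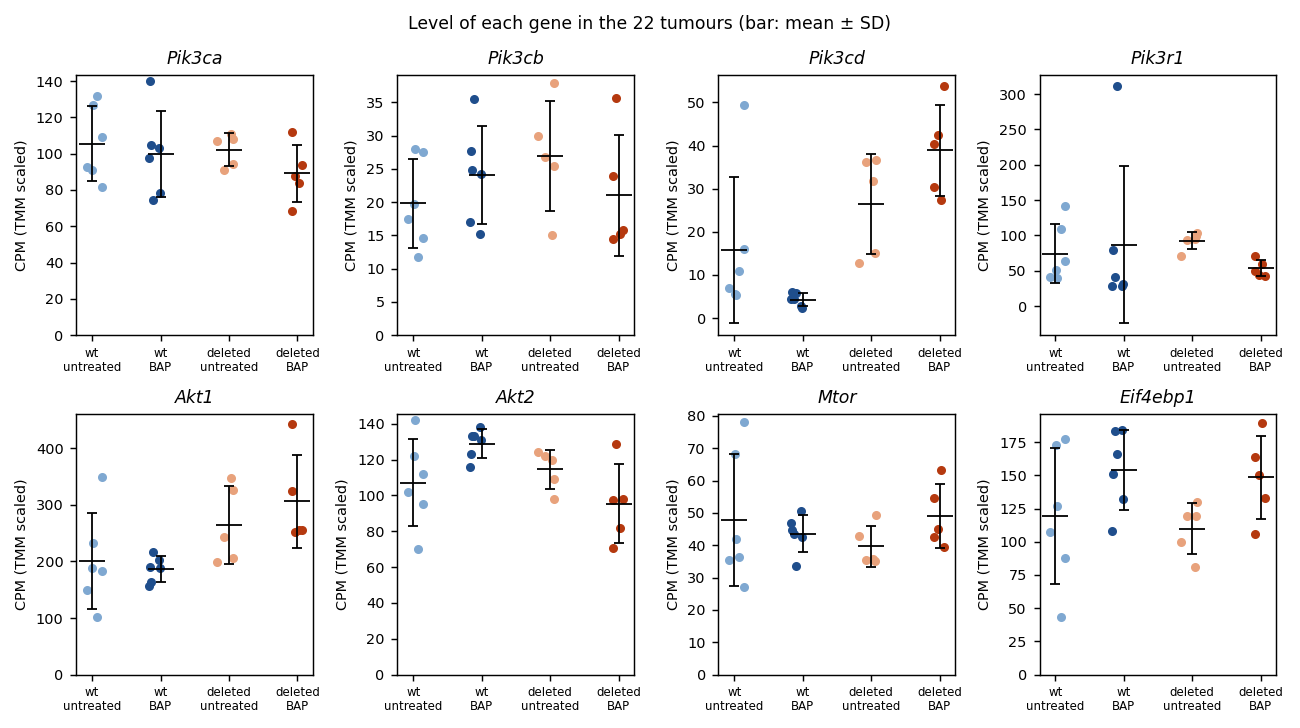
CPM of each of the 8 genes in 22 tumours by group, with points for tumours and bars for the mean ± SD. Pik3cd and Akt1 separate the BAP groups without overlap, and 1 Keap1-wildtype BAP tumour holds 311 CPM of Pik3r1.

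The other catalytic subunits did not pass in BAP tumours. Pik3ca ran from 68.4 to 112 CPM in Keap1-deleted BAP and from 74.5 to 140 CPM in Keap1-wildtype BAP tumours, a difference of -0.16 (95% interval -0.52 to 0.20, edgeR adjusted p = 0.473). With library totals alone it was 0.28, below the shifted median. Across the 4 groups the mean of Pik3ca lay between 89.1 and 106 CPM. Over all 22 tumours Pik3ca ran from 68.4 to 140 CPM and Pik3cd from 2.43 to 53.7 CPM. In TPM, which has no TMM scaling, the spans were 3.05-fold for Pik3ca and 38.9-fold for Pik3cd. Pik3cb ran from 14.4 to 35.7 CPM in Keap1-deleted BAP and from 15.2 to 35.5 CPM in Keap1-wildtype BAP tumours, with a difference of -0.20 (95% interval -0.81 to 0.42).

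Pik3r1 encodes p85-alpha, which stabilises p110 and holds it inactive until a receptor is engaged. In Keap1-wildtype BAP tumours it ran from 28.9 over a median of 36.9 to 311 CPM, and the highest value stood alone in library 2. The Keap1-deleted BAP tumours were at 59.8, 71.0, 44.5, 50.2 and 43.2 CPM. The difference was -0.69 (95% interval -1.79 to 0.40, edgeR adjusted p = 0.308), and it was 0.35 without Keap1-wildtype BAP 2 (edgeR adjusted p = 0.428), so that library sets the direction. Keap1-deleted untreated tumours were at 99.9, 94.2, 103, 95.4 and 71.4 CPM, all above the 5 Keap1-deleted BAP tumours, and the BAP difference in this genotype was -0.79 (95% interval -1.93 to 0.35, edgeR adjusted p = 0.463). Pik3r2, the gene of the related p85-beta, had group means between 123 and 144 CPM.

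Mtor, the kinase of both mTOR complexes, ran from 39.6 to 63.4 CPM in Keap1-deleted BAP and from 33.7 to 50.5 CPM in Keap1-wildtype BAP tumours, a difference of 0.17 (95% interval -0.30 to 0.64). With library totals alone Mtor was at 0.62 (edgeR adjusted p = 0.0359), against the shifted median of 0.44. Eif4ebp1, the gene of 4E-BP1, ran from 106 to 189 CPM in Keap1-deleted BAP and from 108 to 184 CPM in Keap1-wildtype BAP tumours, with a difference of -0.05 (95% interval -0.60 to 0.49). In CPM the groups did not separate in either gene. In TPM, which has no TMM scaling, Mtor ran from 12.1 to 20.3 in Keap1-deleted BAP and from 7.37 to 10.3 in Keap1-wildtype BAP tumours. Eif4ebp1 ran from 186 to 280 TPM against 101 to 176, so both genes separated on that scale. With library totals alone Eif4ebp1 was at 0.38 (edgeR adjusted p = 0.241), below the shifted median.

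BAP was compared with no BAP within each genotype. In Keap1-wildtype tumours 0% of all genes tested were called by edgeR, although 2622 genes had an unadjusted p under 0.05, and 1 of the 8 genes was among these. That gene was Pik3cd, at -1.87 on the log2 scale in BAP tumours (SE 0.48, edgeR adjusted p = 0.145). Of the 6 BAP tumours 4 lay below all 6 untreated tumours. DESeq2 called it (adjusted p = 0.0054) and limma-voom did not (adjusted p = 0.736). Without Keap1-wildtype untreated 6 and the other doubted library the Pik3cd difference was -1.07 (edgeR adjusted p = 0.468). Eif4ebp1 was at 0.37 and Akt2 at 0.26 in this comparison, and neither passed (adjusted p = 0.552 and 0.481).

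In Keap1-deleted tumours 6.10% of all genes were called for BAP and 0 of the 8 genes were, with 0 at an unadjusted p under 0.05 and 0 by DESeq2 or limma-voom. Pik3cd was at 0.56 (95% interval -0.49 to 1.60) and Eif4ebp1 at 0.43 (95% interval -0.14 to 1.01). For Eif4ebp1, 4 of the 5 BAP tumours lay above all 5 untreated tumours. Medians over the 8 genes were 0.07 in Keap1-wildtype and 0.00 in Keap1-deleted tumours, beside -0.09 and -0.02 for all genes. The 4 group comparisons share samples, so they are not independent of each other.

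**Figure D4:**
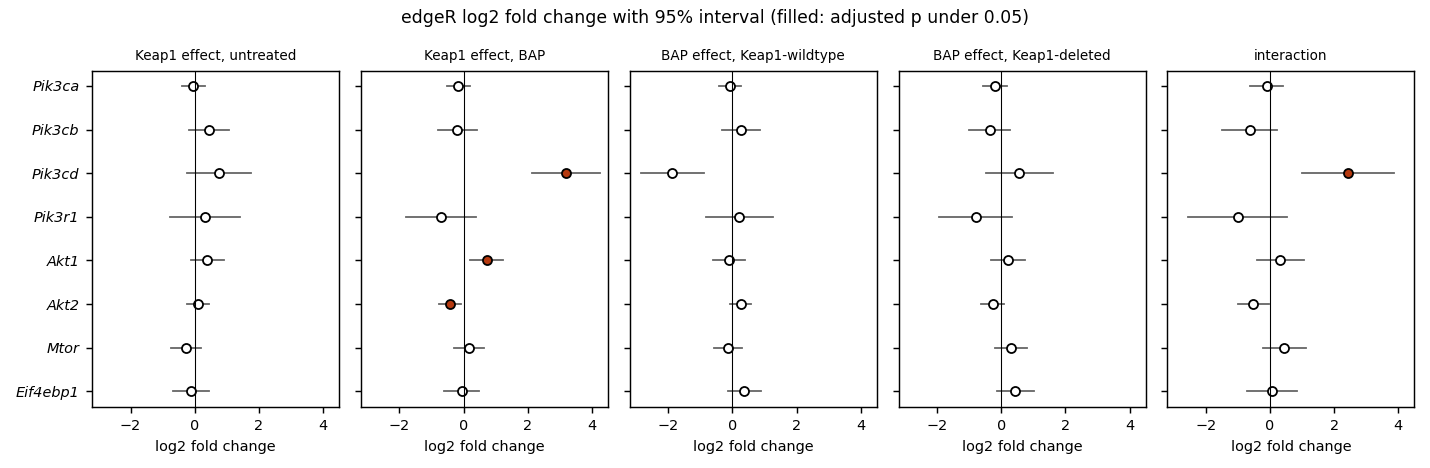
Points are edgeR log2 fold changes of the 8 genes with 95% intervals, in 5 panels for the 5 comparisons, and filled points have an adjusted p under 0.05. Filled are Pik3cd (3.18), Akt1 (0.72) and Akt2 (-0.43) for Keap1 in BAP tumours and Pik3cd (2.43) for the interaction.

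Around the 8 genes, 74 further pathway genes were sorted by role, of which 73 were tested and Sgk2 was too low. None was called for Keap1 in untreated tumours or for BAP in either genotype. By unadjusted p under 0.05 the counts there were 12, 11 and 9, and DESeq2 called 3, 3 and 4. Of all 19202 genes tested, 3382, 2622 and 3901 had an unadjusted p under 0.05 in the same order. DESeq2 called 944, 892 and 2112 of all 19202 genes in these comparisons. Without Keap1-wildtype untreated 6, 14 of the 73 were called for Keap1 in untreated tumours, where 14.4% of all genes tested were then called. Without both doubted libraries 12 were, beside 12.9% of all genes. For Keap1 in BAP tumours 27 were called, 12 higher and 15 lower, which is again near the background of 40.3%. The count was 27 without both doubted libraries (39.2% of all genes). With library totals alone 31 were called (42.9% of all genes), 24 higher and 7 lower, with the median of all genes at 0.44. All 27 calls were lost with the leukocyte or the keratinocyte marker level as a covariate. Those fits called only 2 and 0 of all 19202 genes, and the marker levels separate the BAP groups. They therefore cannot tell the marker levels from the Keap1 genotype.

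Receptors and adaptors had 2 of 7 genes higher and 1 lower in Keap1-deleted BAP tumours. Of all genes tested 20.3% were called higher and 20.0% lower in this comparison, and these shares are the background for each role below. Grb10, an adaptor that damps insulin receptor signalling, rose from a mean of 10.1 ± 4.52 CPM (SD, n = 6) to 217 ± 105 CPM (n = 5), a log2 difference of 4.42 (edgeR adjusted p = 0.000651). Gab2, a docking protein best known in blood cells, rose by 2.32, and its relative Gab1 fell by 1.31 on the log2 scale. The receptor genes Igf1r (0.23) and Insr (0.43) did not pass.

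Of 5 other class I PI3K subunits, 3 were higher, beside 20.3% of all genes. They were Pik3cg (2.79), the catalytic p110-gamma known from leukocytes, and its partners Pik3r5 (4.09) and Pik3r6 (2.46). Pik3cg ran from 15.5 to 29.2 CPM in Keap1-deleted BAP tumours and from 1.64 to 4.56 CPM in Keap1-wildtype BAP tumours. Pik3r2 (-0.01) and Pik3r3 (-0.43) did not pass. Leukocyte marker sums were 683 to 1820 CPM in Keap1-deleted BAP and 68.0 to 147 CPM in Keap1-wildtype BAP tumours. Fibroblast marker sums were also higher, at 14300 to 39500 against 589 to 2300 CPM. Keratinocyte sums were lower, at 257 to 2310 against 36900 to 81300 CPM. The part of any cell type in the rise of these 3 genes was not tested.

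Among the other kinases at the level of AKT, Sgk1 rose by 1.28, and Pdpk1, the gene of the AKT-activating kinase PDK1, fell by 1.21.

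Among 8 lipid phosphatases and other brakes 3 rose and none fell, beside 20.3% of all genes called higher and 20.0% lower. Inpp5d, the gene of the leukocyte phosphatase SHIP1, rose by 3.07 and its widely expressed relative Inppl1 by 2.01. Phlpp2, the gene of a phosphatase that acts on AKT, rose by 1.05. Inpp5d was also called for the interaction (2.35, edgeR adjusted p = 0.0391), as was Gsk3a (-1.26, edgeR adjusted p = 0.0299), 2 of the 73 genes tested where 6.94% of all genes were called. Over the 22 fits that each left out 1 library, the interaction call held in 10 for Inpp5d (1.49 to 2.54) and in 17 for Gsk3a (-1.40 to -1.14).

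On the mTOR side, 2 of 9 TSC, RHEB and stress genes fell, near the 20.0% of all genes called lower. They were Ddit4 (-1.59), the stress-induced inhibitor REDD1, and Sesn2 (-0.97), a leucine sensor that NRF2 is also known to induce. Tsc1 (0.50), Tsc2 (0.29) and Rheb (0.11) did not pass. Of 8 mTOR complex subunits only Prr5 passed, at 9.79 to 20.6 CPM in Keap1-deleted BAP and 0.704 to 1.56 CPM in Keap1-wildtype BAP tumours (log2 difference 3.80, edgeR adjusted p = 0.00537). Rptor and Rictor, which define the complexes, were both at -0.08. Of 14 genes of amino acid input 3 fell, also near the 20.0% of all genes. They were the arginine sensor Castor1 (-1.38) and the Ragulator subunits Lamtor4 (-0.61) and Lamtor1 (-0.51). Rragb was called higher at very low levels, with 22, 13, 54, 23 and 0 counts in the Keap1-deleted BAP tumours and 3 counts in 1 of 6 Keap1-wildtype BAP tumours, so no fold is given.

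Translation effectors had the most genes called lower, 6 of 10, and none higher, with a median of -0.84 on the log2 scale. Of all genes tested 20.0% were called lower, and their median was 0.00. With library totals alone 1 of the 10 was called lower and 1 higher, with a median of -0.41 beside 0.44 for all genes. Rps6kb2, the gene of S6 kinase 2, fell by 1.96, from a mean of 96.8 ± 40.8 CPM (SD, n = 6) to 24.8 ± 5.88 CPM (n = 5). The ribosomal protein gene Rps6, whose product the S6 kinases phosphorylate, fell by 0.95, and the 4E-BP gene Eif4ebp2 by 0.86. Eif4g1 fell by 0.89, Pdcd4 by 0.81 and Larp1 by 0.65 on the same scale. Eif4e was at 0.31 and did not pass. Of the AKT substrates and autophagy targets, Ulk1 (-1.21) and Gsk3a (-1.04) fell and 6 of 8 were not called. Keratinocyte markers fell in the same tumours, from 36900 to 81300 CPM down to 257 to 2310 CPM, and their part in these results was not tested.

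**Figure D5:**
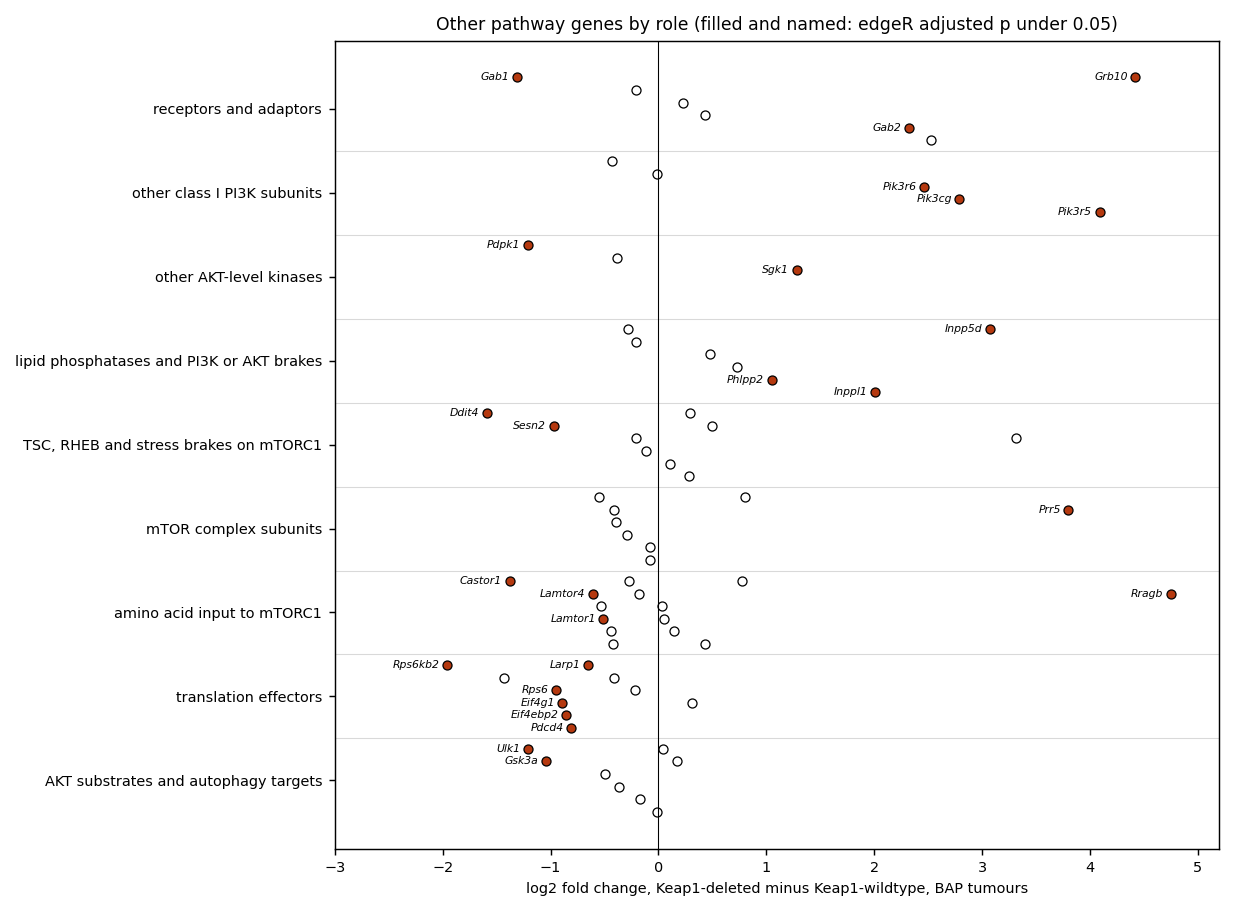
Log2 fold changes of other pathway genes, Keap1-deleted minus Keap1-wildtype in BAP tumours, in rows by role. Filled and named genes have an edgeR adjusted p under 0.05; vertical offsets only keep points apart, and the fitted value of Rragb rests on 3 counts in the wildtype group.

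Likeness of pattern was described by Pearson's r of log2 CPM over the 22 tumours, which share group differences and library composition, among 13283 protein-coding genes. Among the genes most like Pik3cd were Cyth4 and Inpp5d, each with r = 0.97, and 0.92 and 0.90 after the group means were removed. Akt1 was most like Ddb1 (0.95), Fbxw8 (0.93) and Specc1 (0.92). Akt2 was most like Cmtm6 (0.90), Stk24 (0.90) and Dock1 (0.89). For Mtor the first was Exosc10 (0.83), which lies 746 bases beyond the end of Mtor on the same strand, at chr4:148558429-148582401, followed by Gnb2 (0.76) and Tubb6 (0.75). Eif4ebp1 was most like Map2k1 (0.80), Mthfd1l (0.79) and Prelid2 (0.77), and Pik3r1 most like Lrmda (0.83), Steap4 (0.79) and Sntb1 (0.78). Pik3cb was most like Acpp (0.79), N4bp1 (0.78) and Sun2 (0.75). Pik3ca had the lowest first value, with Zfp93 (0.71), Rubcn (0.70) and Zfp507 (0.69).

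Among the 28 pairs of the 8 genes, the highest r over the 22 tumours was 0.66 for Pik3cd and Akt1 (0.42 after the group means were removed), followed by 0.59 for Mtor and Eif4ebp1 (0.62) and 0.53 for Pik3cb and Akt2 (0.51). The lowest was -0.53 for Pik3cd and Akt2 (-0.26). Pik3ca had values between -0.35 and 0.14 with the other 7 genes.

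On GRCm38, as annotated by GENCODE M21, all 8 are protein-coding genes, and none shares exonic bases with another annotated gene. Pik3ca is at chr3:32397671-32468486, Pik3cb at chr9:99036654-99140621, Pik3cd at chr4:149649168-149702571 and Pik3r1 at chr13:101680563-101768217. Akt1 is at chr12:112653821-112674884, Akt2 at chr7:27591552-27640826, Mtor at chr4:148448611-148557683 and Eif4ebp1 at chr8:27260329-27276674. RefSeq promoter windows of GRCm38.p6, from 250 bases before to 50 bases after a start, were given for 7 of the 8, all but Eif4ebp1, with 14 windows. The letters TGACNNNGC, the core of the antioxidant response element that NRF2 binds, searched on both strands, were in 0 of these 14 windows. They were in 12.4% of the 32851 promoter windows of all genes.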

How the data were processed

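Bulk RNA of 22 tumours was sequenced as paired-end Illumina reads, per the labels' protocols. The authors deposited an expected count per Ensembl gene ID (RSEM, per the file names), whole in every file, and a length per gene, the same in all files and equal to the union exon length of GENCODE M21 for 96.1% of 52125 matched IDs. Aligner and build were not given in the sources used here. Counts were fitted with edgeR 4.0.16 (R 4.3.3; quasi-likelihood F test, robust, TMM, filterByExpr with a minimum count of 10, 19202 genes), all 22 libraries and a term per group. Calls are at a Benjamini-Hochberg adjusted p under 0.05 over all genes tested. The script was tested on simulated data. The 8 genes, the lists and the tests were chosen with earlier results of these data known. Any pathway gene called could be named, as could the 3 genes most like each of the 8 (mean of at least 1 CPM, no predicted genes). Some genes that these rules select are not reported here. Lists were not tested as sets.

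Replicates are numbered in accession order. The labels do not say that tumours came from separate mice, so p values measure only the spread between these samples. No 2 libraries agreed within sampling noise (231 pairs, lowest chi-square per degree of freedom 96.5). Alternatives used DESeq2 1.42.0 (its test, or its size factors in edgeR), limma 3.58.1 (voom with sample weights), library totals, other count filters, only the groups compared, marker scores or the R suffix of titles as a covariate, and fewer libraries. Marker scores are the mean log2 CPM (prior count 2) of a marker list. The suffix R ends 4, 1, 1 and 2 titles in the 4 groups, and its meaning is not given.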

Additional observations from a re-analysis of the deposited data

Results flagged for a closer look

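Among 32 sets of tumours (8 genes in 4 groups), 3 held a tumour set apart from the rest of its group by more than the 95% limit of Dixon's test, which chance reaches in about 1 of 20 sets. Pik3cd was at 49.3 CPM in Keap1-wildtype untreated 6, against a group median of 9.02. Pik3r1 was at 311 CPM in Keap1-wildtype BAP 2 (group median 36.9) and at 71.4 CPM in Keap1-deleted untreated 5 (group median 95.4). The Keap1 difference of Pik3cd was larger in BAP than in untreated tumours, by 2.43 on the log2 scale in the test of the interaction (edgeR adjusted p = 0.0411). That call held in 8 of 22 fits that each left out 1 library, and it was lost without Keap1-wildtype untreated 6.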

How the results depend on the processing

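The higher Pik3cd level with Keap1 deletion in BAP tumours kept its direction and its call in all 11 fits that each left out 1 library (3.03 to 3.29) and in the other alternatives except the 2 marker covariates. Depth limited little here, since the lowest Pik3cd total was 65 counts. The cause of the changes below was not tested. No paired analysis was possible because the labels carry no replicate numbers. The number of the 8 genes called for Keap1 in BAP tumours was 0 with the keratinocyte (0% of all genes) or leukocyte covariate (0.0104%). It was 1 without the library labelled Keap1-deleted BAP 2 (35.8% of all genes). Over the single libraries left out it was 1 to 3, beside 36.2% where 3 were called. For Keap1 in untreated tumours it was 1 by limma-voom (9.83% of all genes) and without the 2 doubted libraries (12.9%). Over single libraries it was 0 to 1, beside 14.4% where 1 was called. For BAP in Keap1-wildtype tumours DESeq2 gave 1, beside 4.65% of all genes. For the interaction it was 0 by limma-voom (8.82% of all genes), without a count filter (0.312%) and without the 2 libraries (6.44%). It was also 0 with the keratinocyte (0%) or leukocyte covariate (0.0781%). Over single libraries it was 0 to 1, beside 5.80% to 12.1% where 1 was called.

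Of the other pathway genes, the number called for Keap1 in BAP tumours was 0 with the keratinocyte (0% of all genes) or leukocyte covariate (0.0104%). Over single libraries it was 24 to 29, beside 34.4% of all genes where 24 and 36.3% where 29 were called. For Keap1 in untreated tumours it was 3 by DESeq2, 12 by limma-voom, 12 without the 2 libraries and 0 to 14 over single libraries. Of all genes the same fits called 4.92%, 9.83%, 12.9% and, where 14 were called, 14.4%. For BAP in Keap1-wildtype tumours it was 3 by DESeq2, beside 4.65% of all genes. For BAP in Keap1-deleted tumours it was 3 with library totals, 4 by DESeq2, 9 by limma-voom, 2 with a filter of 1 CPM, 3 with the title suffix, 1 with the leukocyte covariate, 2 without the 2 libraries and 0 to 2 over single libraries. For the interaction it was 6 by DESeq2 and 8 with the title suffix, beside 15.7% of all genes in each fit. It was 0 without a count filter (0.312% of all genes) and with the keratinocyte (0%) or leukocyte covariate (0.0781%). Over single libraries it was 0 to 5, beside 12.1% where 5 were called.

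These log2 differences changed sign, most of them small and, but for Akt1 and Akt2 for Keap1 in BAP tumours, not called at first. With library totals, the median of all genes moved from 0.00 to 0.44 for Keap1 in BAP tumours, from -0.09 to -0.27 for BAP in the wildtype and from 0.10 to 0.43 for the interaction. For Keap1 in BAP tumours Pik3ca was then 0.28, Pik3cb 0.24, Akt2 0.01 and Eif4ebp1 0.38. In untreated tumours Pik3ca was 0.06 and Eif4ebp1 0.04, and for the interaction Pik3ca was 0.22. With the keratinocyte covariate, Pik3ca was 0.02 for Keap1 in untreated tumours. In BAP tumours Pik3ca was 0.28, Pik3cb 0.03, Akt1 -0.05, Akt2 0.01 and Mtor -0.25. For BAP, Akt1 was 0.11 in the wildtype, and in Keap1-deleted tumours Pik3ca was 0.08, Pik3cd -0.59, Akt1 -0.26 and Akt2 0.02. For the interaction Pik3ca was 0.26, Akt1 -0.36 and Eif4ebp1 -0.05. With the leukocyte covariate, Pik3ca was 0.12, Pik3cd -0.22 and Pik3r1 -0.13 for Keap1 in untreated tumours, and Pik3ca was 0.13 and Mtor -0.22 in BAP tumours. For BAP in the wildtype Akt1 was 0.20 and Mtor 0.03, and for the interaction Pik3ca was 0.00, Akt1 -0.03 and Eif4ebp1 -0.19. Without the 2 libraries, Eif4ebp1 was 0.03 for Keap1 in untreated tumours. Akt1 was 0.12 and Mtor 0.06 for BAP in the wildtype, and Akt1 -0.08 and Eif4ebp1 -0.12 for the interaction. By limma-voom, Pik3r1 was 0.15 for Keap1 in BAP tumours. Pik3r1 was -0.38 and Mtor 0.13 for BAP in the wildtype, and Eif4ebp1 -0.03 for the interaction. With the title suffix, Pik3ca was 0.08 for Keap1 in untreated tumours and 0.05 for BAP in the wildtype. With only the groups compared, Eif4ebp1 was 0.01 for Keap1 in BAP tumours.

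Over single libraries left out, Pik3ca ran from -0.11 to 0.03, Akt2 from 0.00 to 0.21 and Eif4ebp1 from -0.29 to 0.03 for Keap1 in untreated tumours. In BAP tumours Pik3r1 ran from -0.87 to 0.35 and Eif4ebp1 from -0.16 to 0.05. For BAP in the wildtype Pik3r1 ran from -0.82 to 0.51, Akt1 from -0.25 to 0.12 and Mtor from -0.26 to 0.06. For the interaction Pik3ca ran from -0.21 to 0.01, Pik3r1 from -1.30 to 0.03 and Eif4ebp1 from -0.08 to 0.24.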
